A study of Mus musculus with 41 samples.

Results

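The antioxidant enzymes and the targets of the transcription factor Nrf2 (Nfe2l2) were followed in lung and liver RNA of mice that had inhaled nano-sized titanium dioxide (nanoTiO2). The set held 10 genes, Hmox1, Nqo1, Gclc, Gclm, Txnrd1, Sod1, Sod2, Sod3, Cat and Prdx1, of 27962 gene names on the array. A spot belonged to the set when its gene name equaled one of these symbols. This gave 12 probes on 21 spots, with 1 probe for each of 9 genes and 3 probes for Sod1.

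Female C57BL/6 mice of the substrain C57BL/6BomTac inhaled surface-coated rutile nanoTiO2 (UV-Titan L181) at 40 mg/m3 for 1 h a day on 11 days, and control mice were kept under the same regime in filtered air. Lung and liver were taken 5 days after the last exposure. All animals had been time-mated and had not conceived; the labels of the miRNA arrays give an age of 11 to 13 weeks, and those of the mRNA arrays give none in weeks. The arrays comprised 7 exposed and 6 control lungs and 7 exposed and 8 control livers, 28 in all, and 12 mice contributed both tissues. Each value is the log2 ratio of the mouse RNA (Cy5) to a universal mouse reference RNA pooled from 11 cell lines (Cy3), so a value of 0 means a signal equal to that of the reference. The dyes were never swapped, and a dye effect that is equal on all arrays drops out of the differences between groups but not out of a ratio.

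Between 55.1% and 70.5% of spots were well above background in the mouse channel, with overlapping ranges in the 4 groups. The tissue labels matched their markers. In control mice all 6 tested lung epithelium markers were higher in lung, and all 6 tested hepatocyte markers were higher in liver. Exposed mice were always hybridized at positions 1 and 2 of a slide and control mice at positions 3 and 4, so position and exposure cannot be told apart. Each slide held 1 tissue, and lung and liver were scanned with different scanner software versions, so tissue and slide set cannot be told apart either.

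Nrf2 is a transcription factor that the adaptor Keap1 normally holds in the cytoplasm and delivers for degradation. Oxidants and electrophiles modify Keap1, Nrf2 then accumulates in the nucleus, pairs with a small Maf protein and binds antioxidant response elements before genes for glutathione synthesis, quinone reduction, heme breakdown and thioredoxin recycling. The superoxide dismutases and catalase act on superoxide and hydrogen peroxide directly, and in the lung they are part of the defense against inhaled particles and gases. Bulk tissue was measured, so fewer cells of a type and less RNA per cell cannot be told apart.

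The probes of Sod3, Gclm and Prdx1 are shown because Sod3 stood apart in the direction of its tissue difference, and because the other 2 cross a gap in the genome, as a probe over an exon junction does. Each is written 5′ to 3′ in lower case, with no part marked:
Sod3: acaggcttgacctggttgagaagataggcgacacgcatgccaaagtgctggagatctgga
Gclm: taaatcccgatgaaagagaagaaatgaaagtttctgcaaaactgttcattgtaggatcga
Prdx1: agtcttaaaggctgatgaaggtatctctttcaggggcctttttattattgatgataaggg
In the mm7 build named in the lung files the Sod3 probe lies at chr5:51741388-51741447 on the plus strand. The Gclm probe spans chr3:122027477-122030112 and leaves out 2576 bases between its ends, and the Prdx1 probe spans chr4:116069412-116070182 and leaves out 711 bases. Each of the 3 has 1 reading frame free of stop codons. The Sod1 probe reported here, at chr16:90276179-90276238, was designed on the full Sod1 transcript. The other 2 Sod1 probes were designed on a partial complementary DNA clone and lie 3224 and 2316 bases before it.

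RefSeq promoters of the GRCm38.p6 build, each from 250 bases before to 50 bases after a transcription start, were present for 7 of the 10 genes in 9 windows. The letters TGACNNNGC, the core of an antioxidant response element, were searched on both strands. They occurred in 1 window each of Gclm, Txnrd1, Sod1 and Prdx1, in none of those of Nqo1, Sod2 and Cat, and in 12.4% of all 32851 promoter windows of that length. The 4 matches are printed to show where these letters stand in the genes measured below, 5′ to 3′ on the strand of the gene, with the match in capitals (all 4 read TGACNNNGC on the opposite strand):
Gclm: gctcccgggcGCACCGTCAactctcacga
Txnrd1: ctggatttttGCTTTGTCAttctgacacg
Sod1: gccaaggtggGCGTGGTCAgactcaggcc
Prdx1: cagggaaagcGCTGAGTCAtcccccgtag
The printed stretches lie at chr3:122245413-122245441, chr10:82859104-82859132, chr16:90220696-90220724 and chr4:116685456-116685484, all on the plus strand. The matches begin 134, 92, 56 and 133 bases before the start, in that order. A match describes the sequence and is no measured binding site. An absence holds for the window alone, since bases farther than 250 before the start were not searched.

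To ask whether inhaled nanoTiO2 changed the antioxidant genes in the lung, exposed and control lungs were compared. None of the 10 genes was called at an adjusted p under 0.05 (limma with Benjamini-Hochberg adjustment over 41105 probes), where 0.202% of all probes were. Sod2 and Sod3 had an unadjusted p under 0.05, that is 2 of the 10 genes against 7.13% of all probes. The differences were small, with a median of 0.06 on the log2 scale over the 10 genes and 8 of 10 above 0, and their 95% confidence intervals together spanned -0.60 to 0.71. The median difference over all probes was 0.0015.

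**Figure D1:**
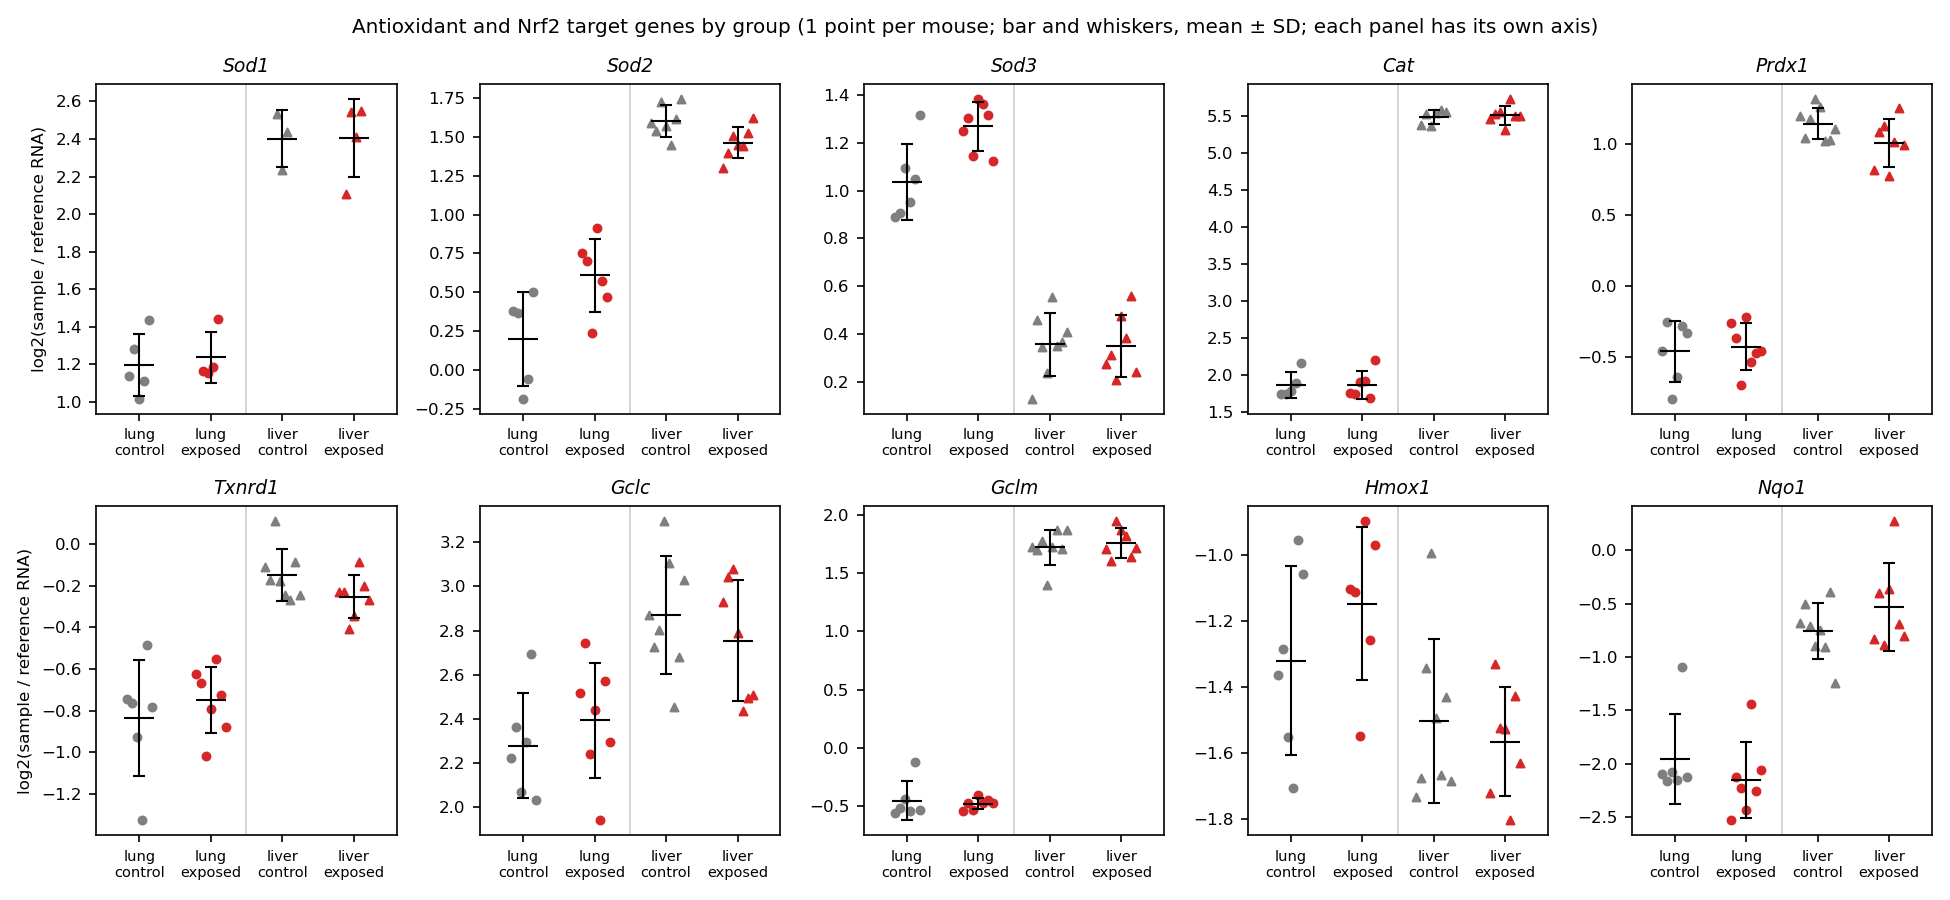
Log2 ratio of mouse RNA to reference RNA (vertical axis, its own range in each panel) for the 10 genes in control (grey) and exposed (red) lungs (circles) and livers (triangles). Each point is 1 mouse and the bar and whiskers are the mean and SD. The exposed and control groups overlap in every panel, while lung and liver lie apart in all panels except Hmox1, Gclc and Nqo1. Of all probes, 59.6% were called between control lung and control liver. The share of all probes whose tissues lie apart was not computed.

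Sod2, the manganese superoxide dismutase of the mitochondrial matrix, showed the largest lung difference of the set. The 6 exposed lungs with a value ran from 0.24 (mouse 12) over a median of 0.64 to 0.91 (mouse 13), and the 5 control lungs had 0.38, 0.37, -0.18, -0.06 and 0.50. All 6 exposed values were above the control mean, 4 were above every control, and the groups overlapped through exposed mice 12 and 20. Exposed lungs averaged 0.61 ± 0.24 (SD, n = 6) and control lungs 0.20 ± 0.30 (SD, n = 5), a difference of 0.41 (SE 0.14, 1.33-fold, limma adjusted p = 0.56). A 2-sided exact permutation test of this single value gave p = 0.0368.

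The scanner software marked the local background of the Sod2 spot on the lung arrays of exposed mouse 23 and control mouse 32, and these values were therefore missing. With them kept, the difference was 0.37 over 7 exposed and 6 control lungs (limma adjusted p = 0.50). Exposed exceeded control lungs on each of the 3 slides that held both groups, by 0.35, 0.36 and 0.24. With the slide as a fixed block the difference was 0.32 with a limma adjusted p of 0.13. The Cy3 reference channel of this spot differed by 0.03 between the groups (limma, unadjusted p = 0.54).

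Sod3, the superoxide dismutase secreted into the extracellular matrix, differed by less but with a narrower spread. Exposed lungs ran from 1.12 (mouse 23) over a median of 1.31 to 1.38 (mouse 13), and control lungs from 0.89 (mouse 24) over a median of 1.00 to 1.32 (mouse 34). Of the 6 control lungs, 5 lay below every exposed lung, and control mouse 34 lay within the exposed range. The means were 1.27 ± 0.10 (SD, n = 7) and 1.03 ± 0.16 (SD, n = 6), a difference of 0.23 (SE 0.07, 1.18-fold, limma adjusted p = 0.40). The exact permutation test, 2-sided, gave p = 0.0122 for this single value.

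Within slides the Sod3 difference was 0.38, 0.12 and 0.19. It was 0.29 without control mouse 34 (limma adjusted p = 0.066), the lowest adjusted p that leaving out an array gave for Sod3. The size rested on the signal used: with the processed signals of the scanner software it was 0.0073, and with a background model fitted on all spots it was -0.10.

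Sod1, the copper-zinc superoxide dismutase of the cytosol, lacked a value on 12 of the 28 arrays because of the background marks. On the arrays left, 4 exposed lungs averaged 1.24 ± 0.14 (SD) and 5 control lungs 1.20 ± 0.16 (SD), a difference of 0.04 (SE 0.09). With the marked spots kept it was 0.01 over 7 and 6 lungs. The Sod1 probe at 2316 bases differed by -0.08. Cat, which breaks down hydrogen peroxide in peroxisomes, had the smallest difference of the set, 0.0008 (SE 0.10; 6 exposed and 5 control lungs). Its 95% confidence interval ran from -0.21 to 0.21.

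The genes of glutathione synthesis did not differ beyond their spread. Gclc, the catalytic subunit of glutamate-cysteine ligase, averaged 2.39 ± 0.26 (SD, n = 7) after exposure against 2.28 ± 0.24 (SD, n = 6) without it (interval of the difference -0.15 to 0.38). Gclm, its modifier subunit, averaged -0.48 ± 0.05 (SD, n = 7) and -0.45 ± 0.17 (SD, n = 6), with an interval of -0.16 to 0.11. Its lung spots were dim as well, with a log2 Cy5 signal of 6.61 to 7.26, and the part of the offset in this interval was not tested. The wide control spread of Gclm came from mouse 32, at -0.12, while the other 5 control lungs ran from -0.56 to -0.44. Without mouse 32 the Gclm difference was 0.04.

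In the thioredoxin branch, Txnrd1, the cytosolic thioredoxin reductase, averaged -0.75 ± 0.16 (SD, n = 7) after exposure against -0.84 ± 0.28 (SD, n = 6) in filtered air. Prdx1, a peroxiredoxin that reduces peroxides with electrons from thioredoxin, averaged -0.43 ± 0.17 (SD, n = 7) and -0.46 ± 0.22 (SD, n = 6). The differences of 0.09 and 0.03 lay within the spread between mice.

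Hmox1 and Nqo1 are the genes most often read as a sign of Nrf2 activity. Hmox1, the inducible heme oxygenase, ran from -1.55 to -0.90 with a median of -1.11 in 6 exposed lungs and from -1.71 to -0.96 with a median of -1.33 in 6 control lungs. The difference was 0.17 (SE 0.13, interval -0.11 to 0.45), and the groups overlapped over most of their range. It was 0.09 without control mouse 29, 0.25 without exposed mouse 12 and 0.08 with the slide as a fixed block. Nqo1, which reduces quinones by 2 electrons at a time, ran from -2.53 to -1.44 with a median of -2.23 in exposed lungs and from -2.16 to -1.10 with a median of -2.11 in control lungs. The difference of -0.20 (SE 0.19) was opposite in sign to that of Hmox1 and lay within the spread.

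Nqo1 rested on a mouse in each group. Exposed mouse 19, at -1.44, lay above every control lung but 1, and that 1 was control mouse 32, at -1.10. The other 6 exposed lungs ran from -2.53 to -2.06 and the other 5 control lungs from -2.16 to -2.08. Without mouse 32 the difference was -0.03, and without mouse 19 it was -0.32 (limma, unadjusted p = 0.0676 to 0.836 over the 13 arrays left out in turn).

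**Figure D2:**
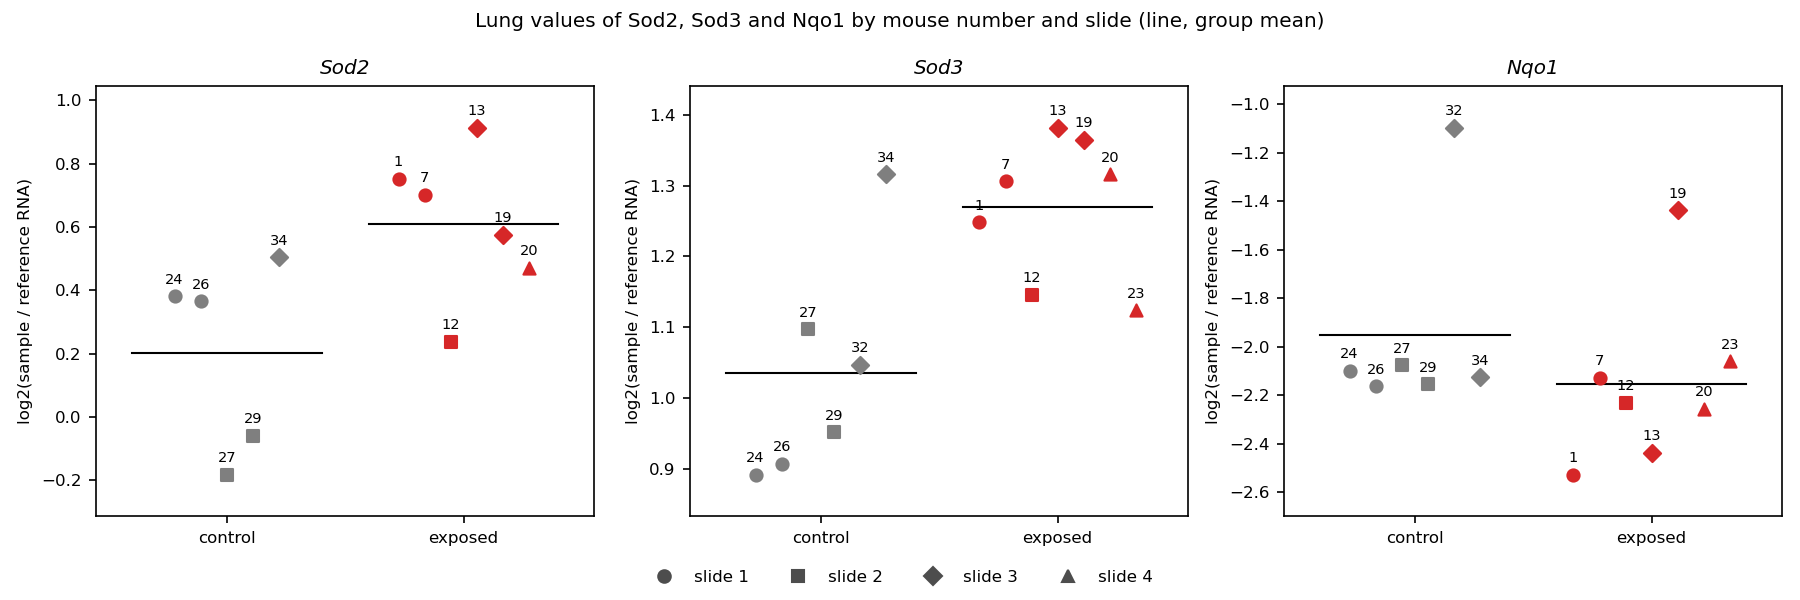
Lung log2 ratio of mouse RNA to reference RNA (vertical axis) of Sod2, Sod3 and Nqo1 for control (grey) and exposed (red) mice, each point labelled with its mouse number and shaped by its slide; the line is the group mean. Exposed lungs averaged higher for Sod2 and Sod3 on slides 1 to 3, slide 4 held exposed lungs alone, and mice 32 and 19 lie above the other Nqo1 values.

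In the liver none of the 10 genes was called either, nor was any of the 41076 probes tested (0%). Sod2 alone of the 10 had an unadjusted p under 0.05, against 2.52% of all probes. Its values ran from 1.30 to 1.62 with a median of 1.45 in 7 exposed livers and from 1.45 to 1.74 with a median of 1.59 in 7 control livers. Exposed livers lay lower, with 3 of 7 below every control liver, and the groups overlapped between 1.45 and 1.62. The means were 1.46 ± 0.10 (SD, n = 7) and 1.60 ± 0.10 (SD, n = 7), a difference of -0.14 (SE 0.06, limma adjusted p = 1). The exact permutation test, 2-sided, gave p = 0.0268, and p = 0.0657 with the marked spot of control mouse 45 kept. With median centering in place of the loess curve the difference turned to 0.11.

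Markers of liver cell types moved beside the liver Sod2 value. All 6 tested hepatocyte markers had lower means in exposed livers, with a median difference of -0.24, but 3 of 6 with median centering or with the background model fitted on all spots. None was called, and 3 had an unadjusted p under 0.05 in this direction, against 1.64% of all probes. Their mean log2 ratio ran from 5.14 to 5.63 in exposed and from 5.39 to 5.87 in control livers. All 7 macrophage markers and 8 of 9 neutrophil markers also had lower means, none with an unadjusted p under 0.05. The neutrophil list stood at 2.07 in control mouse 32 and at no more than 0.47 in any other liver, and without this liver 6 of 9 neutrophil markers were lower and the Sod2 difference was -0.17. The part of these cells in the liver values was not tested.

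Prdx1 and Txnrd1 also had means below those of control livers, by less than the larger SD of the 2 groups. For Prdx1, 4 of 7 exposed livers lay below every control liver, and all 8 control livers lay above the exposed mean. For Txnrd1, 2 of 7 exposed livers lay below every control liver. Prdx1 averaged 1.01 ± 0.17 (SD, n = 7) after exposure against 1.15 ± 0.11 (SD, n = 8) in filtered air, with an interval of the difference of -0.28 to 0.01. Txnrd1 averaged -0.25 ± 0.10 (SD, n = 7) and -0.15 ± 0.12 (SD, n = 8), with an interval of -0.23 to 0.02. Both differences turned positive, to 0.10 and 0.11, with median centering. For Prdx1, 2 of 11 alternatives gave an unadjusted p under 0.05 (limma, lowest unadjusted p = 0.0417, lowest adjusted p = 0.69). Leaving out an array gave Prdx1 a limma unadjusted p of 0.0178 to 0.173.

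Nqo1 had the largest positive liver difference, 0.23 (SE 0.16, interval -0.11 to 0.56). Exposed mouse 19 had the highest liver value, 0.28, as it had among exposed lungs, and the other 6 exposed livers ran from -0.89 to -0.36 against -1.25 to -0.39 in controls. Without mouse 19 the difference was 0.10. With median centering the Nqo1 difference was 0.39. An unadjusted p under 0.05 occurred for Nqo1 in 1 of 11 alternatives (limma, unadjusted p = 0.04, lowest adjusted p = 0.43). The remaining genes, Hmox1, Gclc, Gclm, Sod1, Sod3 and Cat, differed by -0.12 to 0.04 in the liver. With median centering Sod1 differed by 0.35 (limma, unadjusted p = 0.0457, adjusted p = 0.44) and Cat by 0.23 (limma, unadjusted p = 0.0262, adjusted p = 0.39). With the background model fitted on all spots Gclm differed by 0.45 and Cat by 0.37 (limma adjusted p = 0.52 for each).

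**Figure D3:**
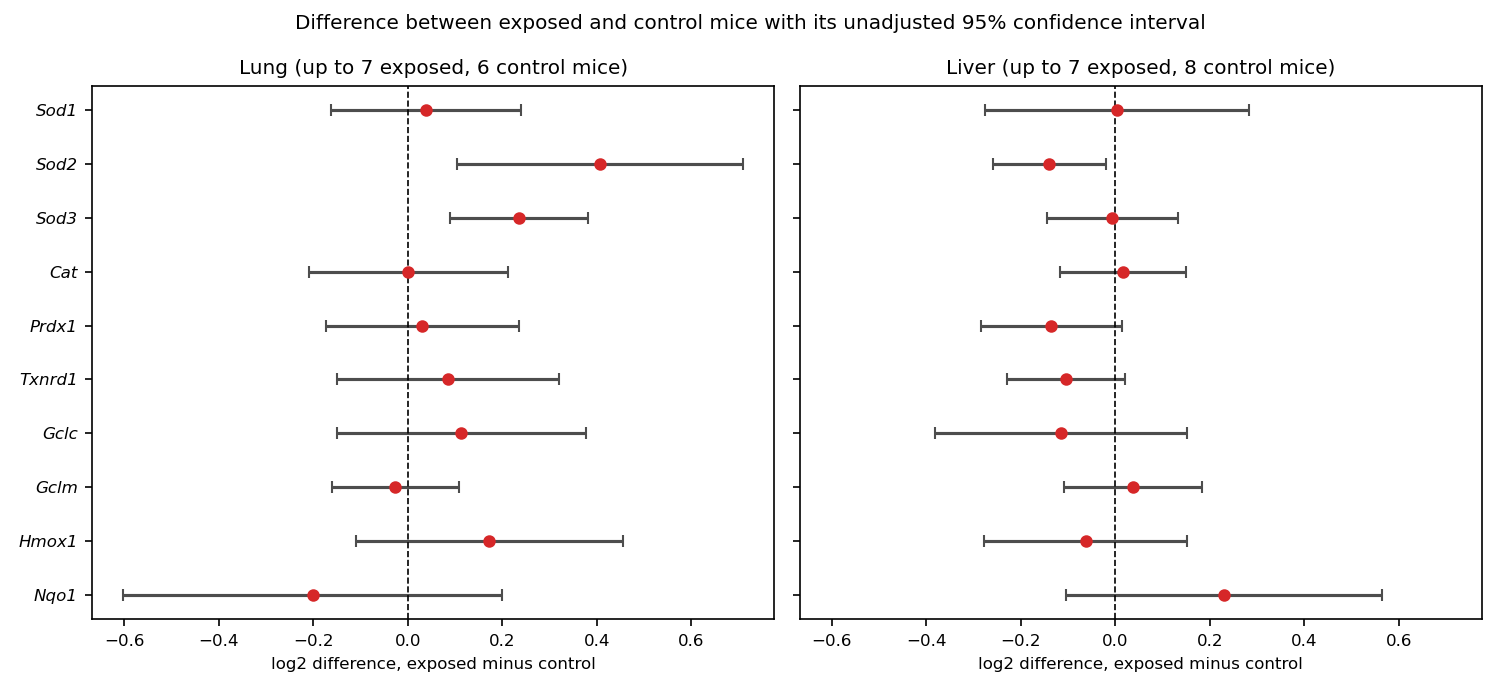
Log2 difference between exposed and control mice (horizontal axis) for each of the 10 genes in lung (left) and liver (right), with the unadjusted 95% confidence interval of the limma fit. The lung intervals of Sod2 and Sod3 and the liver interval of Sod2 lie clear of 0, on opposite sides for Sod2 in the 2 tissues.

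Whether lung and liver differed in their response was tested on the difference of the 2 exposure differences. None of the 10 genes was called, where 0.141% of 41017 probes were, and Sod2 and Sod3 had an unadjusted p under 0.05, against 4.29% of probes. Sod2 had the largest value, 0.55 (SE 0.15, 95% confidence interval 0.24 to 0.85, limma adjusted p = 0.35). With each mouse as a replicate block over the 12 mice with both tissues it was 0.55 with a limma adjusted p of 0.69, and with the slide as a random block 0.52 with a limma adjusted p of 0.062. Sod3 followed with 0.24 (limma adjusted p = 1), which turned to -0.19 with the background model fitted on all spots, and Nqo1 had the lowest value, -0.43 (limma adjusted p = 1).

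Between the organs 9 of the 10 genes differed, and Hmox1 was the exception. In control mice 9 of 10 were called between lung and liver, where 59.6% of all probes were. Of these 8 were higher in liver, against 29.6% of probes, and Sod3 was higher in lung, against 30% of probes. Slide set and scanner software differed between the organs as well, and their part was not tested. The sizes moved with the processing. Over the 9 alternatives the log2 difference ran from -3.27 to -1.72 for Gclm, -2.66 to -0.85 for Sod1 and -2.32 to -1.02 for Sod2. It ran from -2.24 to -1.25 for Prdx1, -1.3 to -0.34 for Txnrd1 and 0.60 to 1.25 for Sod3. Cat (-3.81 to -3.25) and Nqo1 (-1.44 to -1.18) moved less. The folds below hold for the processing used here.

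Cat differed most. Its log2 ratio ran from 1.75 to 2.16 in 5 control lungs and from 5.36 to 5.58 in 6 control livers, with no overlap. The difference was -3.62 (SE 0.09), that is 12.3-fold higher in liver (limma adjusted p = 2.48e-22). Gclm was 4.52-fold higher in liver, with -0.45 ± 0.17 (SD, n = 6) in control lung and 1.72 ± 0.15 (SD, n = 8) in control liver (limma adjusted p = 7.93e-22). The catalytic subunit Gclc differed by 1.51-fold in the same direction, a call that the background model fitted on all spots did not keep (limma adjusted p = 0.15).

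Prdx1 was 3.05-fold, Sod2 2.64-fold, Nqo1 2.29-fold and Txnrd1 1.61-fold higher in control liver, with limma adjusted p of 7.74e-08 for Txnrd1 and from 1.38e-06 to 2.9e-16 for the other 3. All 12 mice with both tissues had higher Nqo1, Gclm, Txnrd1 and Prdx1 values in their liver, as had all 10 with both values for Sod2 and Cat. The reported Sod1 probe was 2.31-fold higher in liver (limma adjusted p = 4.82e-08, 5 lungs and 3 livers). Its control means were 1.20 in lung and 2.40 in liver. With the marked spots kept they lay closer, at 1.29 (n = 6) and 2.16 (n = 8). Of the 2 probes on the partial clone, that at 2316 bases was well above background on all 28 arrays and differed by -0.06 (limma adjusted p = 0.67). The one at 3224 bases was not well above background in 4 of the 6 control lungs, so no difference is given for it.

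Sod3 ran the other way, from 0.89 to 1.32 in 6 control lungs and from 0.13 to 0.56 in 8 control livers, with no overlap. It was 1.60-fold higher in lung (limma adjusted p = 6.46e-10), and higher in the lung of each of the 12 mice. Its spot was not well above background in the livers of exposed mouse 23 and control mouse 24. Hmox1 was the only gene of the 10 not called, with -1.32 ± 0.29 (SD, n = 6) in control lung and -1.50 ± 0.25 (SD, n = 8) in control liver (limma adjusted p = 0.20).

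**Figure D4:**
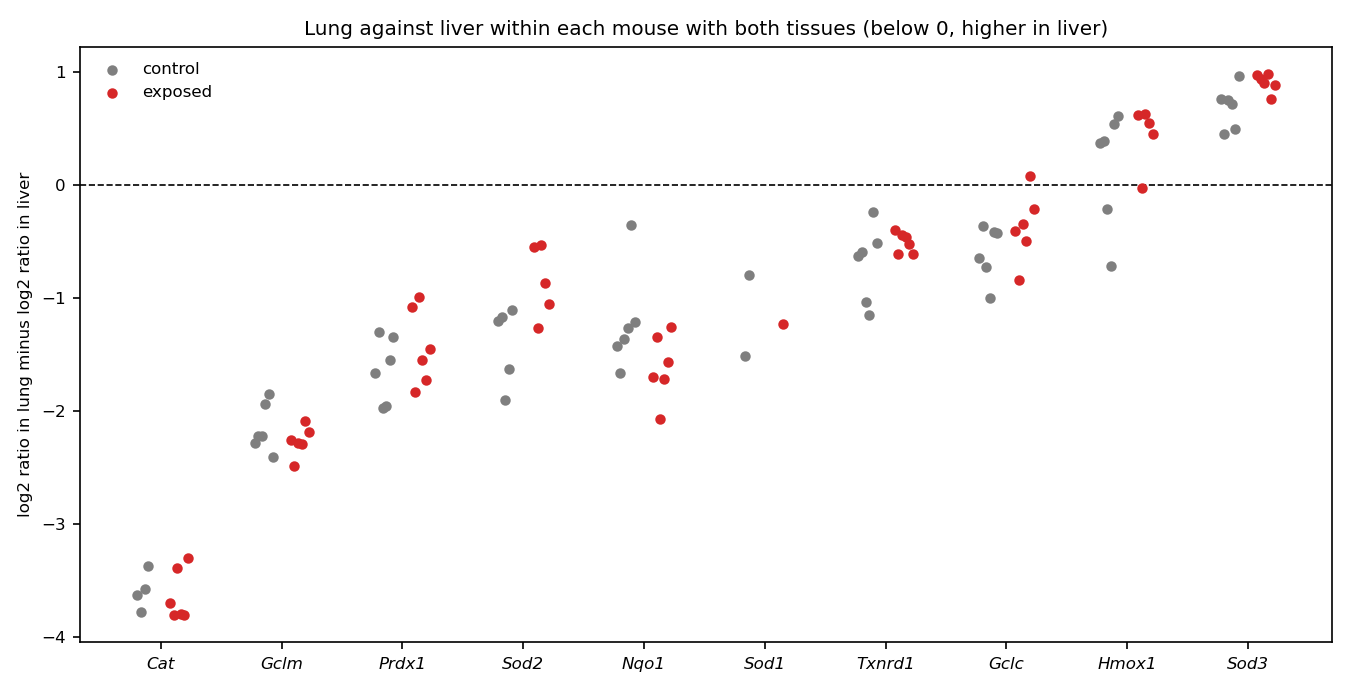
Log2 ratio in lung minus that in liver of the same mouse (vertical axis) for the 10 genes, with control mice in grey and exposed mice in red; values below 0 are higher in liver. Cat lies lowest, between -3.81 and -3.30, Sod3 lies above 0 in all 12 mice, and Hmox1 lies on both sides of 0.

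Over the 4 groups Sod2 thus ran from 0.20 in control lung over 0.61 in exposed lung to 1.46 in exposed and 1.60 in control liver, and Sod3 from 0.35 in exposed and 0.36 in control liver over 1.03 in control lung to 1.27 in exposed lung. For the other 8 genes the exposed and control means of a tissue were at most 0.23 apart, less than the larger SD of the 2 groups. The genes whose probes were most like the 3 members with the widest group means were found by the root mean square difference of centered values over the arrays, among 10981 probes with a value well above background on all 28 arrays. They were Serpinf1 (0.13 over 24 arrays) and 1300007F04Rik (0.15) for Cat, Nadsyn1 and Opa1 (0.13 each over 28 arrays) for Gclm, and Pgk1 (0.11) and D430028G21Rik (0.12) for Prdx1.

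The wider pathway was read from 4 lists of other genes, 59 of which were on the array. In the lung none of the 59 was called; at an unadjusted p under 0.05, 1 was higher and 5 were lower, against 3.84% and 3.28% of all probes. Among 17 glutathione enzymes the lung median difference was 0.0031, and the 2 with an unadjusted p under 0.05 were Gsta1 (-0.51, SE 0.17) and Gsta2 (-0.37, SE 0.15), glutathione transferases whose near-identical sequences may share signal. In control lungs Gsta1 averaged -0.33 ± 0.43 (SD, n = 6), and control mouse 32 again had the highest value, 0.46.

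Among 14 thioredoxins, peroxiredoxins and related genes the median was 0.02, with Msrb2, a methionine sulfoxide reductase, at -0.18 and Txnrd2, the mitochondrial thioredoxin reductase, at -0.10. Among the 11 genes of Nrf2 and its regulators the median was -0.08 and none reached an unadjusted p under 0.05. Among 17 other Nrf2 targets the median was 0.04, with Blvrb, a biliverdin reductase, at 0.12 and Ptgr1, on the array as Ltb4dh, at -0.19. In the liver none of the 54 genes tested was called, and 1 had an unadjusted p under 0.05, Taldo1, a transaldolase of the pentose phosphate pathway (-0.16).

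Markers of other cell types were read beside the lung values. All 7 hepatocyte markers had higher means in exposed than in control lungs (6 of 7 with the background model fitted on all spots). None was called, and 4 had an unadjusted p under 0.05 in this direction, against 3.84% of all probes. Their mean log2 ratio ran from 0.75 to 2.17 in exposed and from 0.48 to 1.13 in control lungs. All 6 heart muscle markers also had higher means in exposed lungs (4 of 6 with that background model or with the processed signals), none with an unadjusted p under 0.05. Cat, 12.3-fold higher in liver, differed by 0.0008 (SE 0.10) between exposed and control lungs. The part of hepatocyte RNA in the lung values, that of Cat included, was not tested. Of 7 macrophage markers 3 were higher at an unadjusted p under 0.05, against 3.84% of all probes. Among them 1 was called, Marco, a scavenger receptor of alveolar macrophages (0.57, limma adjusted p = 0.0092), where 0.202% of all probes were. The macrophage list means were 1.91 to 2.40 in exposed and 2.12 to 2.42 in control lungs. Of 9 neutrophil markers none reached an unadjusted p under 0.05, with list means of 0.66 to 1.96 and 1.05 to 1.64. Of 6 lung epithelium markers tested, 5 had lower means in exposed lungs, a count that fell to 1 with median centering. The remaining marker, Foxj1, a transcription factor of ciliated cells, was called higher (0.29, limma adjusted p = 0.037). It was not called with the marked spots kept (0.25, limma adjusted p = 0.29), and it was -0.32 with the background model fitted on all spots. Leaving out an array took its limma adjusted p as high as 0.11, and neither Marco nor Foxj1 was called with median centering, with that background model, with the processed signals or with the Cy5 channel alone. Sftpc, a surfactant protein of alveolar type II cells, differed by -0.20 (limma adjusted p = 0.54), and by 0.12 with median centering. Of 7 red cell markers 5 had lower means, while Ahsp, which stabilizes alpha globin and is on the array as Eraf, differed by 0.81 (limma adjusted p = 0.054). Of 5 endothelium markers none reached an unadjusted p under 0.05. The part of these cells in the Sod2 and Sod3 values was not tested.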

How the data were processed

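The submitters hybridized lung and liver RNA of single mice (Cy5) with a reference RNA (Cy3) to 4-array slides carrying 41174 probes, and their files were written by Feature Extraction, version 9.5.3.1 for lung and 10.1.1.1 for liver. The deposited intensity values are median spot and local background signals in both channels. The table of the authors, deposited as log2 ratios after LOWESS, was an alternative; its columns correlated at 0.992 to 0.996 with the values used here and had medians of -0.043 to -0.023. A description of background correction in that table is not given in the sources used here.

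From the deposited intensities the background was corrected by normexp (limma 3.58.1, R 4.3.3, offset 50), and spots that the software marked as outliers in signal or local background (2.46% to 4.72% an array) were left out of the model and of the result. Arrays were normalized by loess, with control spots at weight 0, and spots of a probe were averaged. Where a gene had several probes, that with the highest mean signal was reported. Groups were compared with lmFit and eBayes, with Benjamini-Hochberg adjustment over all probes and a threshold of 0.05, per tissue for exposure and over all 28 arrays for the other comparisons. Simulated arrays with 24217 probes returned 99% (lung) and 98% (liver) of changes of 1 on the log2 scale, and 78% and 85% of changes of 0.4. These shares are averages over the changed probes and were not computed for single genes. They therefore do not tell how often a change in a gene of the set, such as Sod2, would be called. The number of arrays limits the precision. Mouse numbers were taken to pair the mRNA arrays of the tissues, since the paper reports liver RNA of the same mice. Some of these numbers belong to exposed mice on the mRNA arrays and to control mice on the miRNA arrays. Deviations of the 12 mice from their group means correlated between lung and liver at -0.078 to 0.21, and 4 of 12 mice correlated best with themselves. The 13 miRNA arrays were not used here. The genes and lists were chosen with earlier results of these data known. Named beside them were pathway genes called in lung or liver, and in each list up to 2 with the highest and 2 with the lowest lung difference among those with an unadjusted p under 0.05. Taldo1, Marco, Foxj1, Sftpc, Ahsp and control mouse 32 were singled out after their values were seen. Alternatives were no background correction, a model on all spots, the software's processed signals, median centering, the authors' table, a filter on dim probes, the Cy5 channel alone, slide as a block, the mouse as a block, the mean of a gene's probes, each array left out and, chosen after seeing the data, spots marked for their background kept.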

Additional observations from a re-analysis of the deposited data

Results flagged for a closer look

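In 39 groups of 4 to 8 mice the highest or lowest mouse was compared with its neighbor, and 5 stood apart by more than Dixon's 95% limit; chance alone does so in about 1 of 20 groups. Control mouse 32 stood above the other control lungs for Nqo1, at -1.10 against a next value of -2.08, and for Gclm, at -0.12 against -0.44. Exposed mouse 19 stood above the other exposed lungs for Nqo1, at -1.44 against -2.06. Control mouse 29 stood below the other control livers for Gclm, at 1.40 against 1.70. Exposed mouse 23 stood above the other 3 exposed lungs with a value for Sod1, at 1.44 against 1.18. This flag rested on the spots left out for their background. With those spots kept, mouse 23 had 1.46 and exposed mouse 19 had the highest Sod1 value, 1.47. No gene of the 10 was called for a difference between the tissues in the response to exposure.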

How the results depend on the processing

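None of the 10 genes was called in lung, in liver or for the difference between the tissues under any setting run, left-out arrays included. Of the uncalled differences, 18 of 110 in lung, 10 of 110 in liver and 9 of 90 between the tissues had the other sign under an alternative. Between control lung and control liver 8 genes were called under all 9 alternatives; Gclc was not with normexp fitted on all spots (-0.35), and Hmox1 was with the table of the authors (0.43). The single-gene exact permutation tests with p under 0.05 numbered 2 in lung and 1 in liver, and 0 in liver with background-marked spots kept. Over all probes 83 were called in lung, 4 with median centering, 12 with normexp fitted on all spots and 133 with the slide as a random block, and 64 to 82 without an array; in liver 0 were called under all settings, with 1034 at an unadjusted p under 0.05. For the difference between the tissues 58 probes were called, 12 with median centering, 5 with normexp fitted on all spots and 34 with the processed signals; the cause was not tested. With the mouse as a replicate block, pairing the 12 mice, 49 were called for this difference, and 22824 against 24438 between control lung and liver, and no call of the 10 genes changed. Leaving out an array moved the lung difference of Sod2 between 0.31 and 0.48 and that of Nqo1 between -0.32 and -0.03.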

Other observations

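The lung of control mouse 32 held the highest of the 13 lung values for 3 of the 6 genes of the set with a value on every lung array, namely Nqo1, Gclm and Txnrd1. It did so for 8 of 37 pathway genes with a value on every lung array (21.6%), and for 6.31% of the 17796 probes that were well above background on all lung arrays. The pathway genes were not held to that signal limit, so the shares come from unlike sets. The 8 were Gsta1, Gsta2, Cbr3, Srxn1, Ptgr1, Slc7a11, Gss and Keap1. Slc7a11 was well above background on only 2 arrays of both tissues together, so most lung values in its ranking were not well above background. Gsta1 had 0.46 in this lung against a median of -0.64 in the other 12, Cbr3, a carbonyl reductase, 1.97 against 0.92, and Srxn1, which repairs overoxidized peroxiredoxins, -0.78 against -1.32. In the liver of the same mouse Nqo1 was -0.74, within the range of the other control livers. That liver stood apart in another respect, with a mean log2 ratio of the 9 neutrophil markers of 2.07 against at most 0.47 in every other liver. These genes were looked at because Nqo1 had set this lung apart, so the count carries no test.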
